A study of Homo sapiens with 22 samples.

Results

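The transcripts described here came from 56 genes of mitotic entry, the spindle and cytokinesis, out of 37908 genes in the deposited count table. They were taken by name from what their products do in mitosis, with earlier results of these data known. They comprised 7 genes for cyclins, CDK1 and its activators, 4 mitotic kinases, 9 genes of the spindle checkpoint, the anaphase-promoting complex and separase, 6 kinetochore and centromere genes, 3 members of the chromosomal passenger complex, 8 kinesins, 6 spindle assembly factors, 5 cytokinesis genes and 8 genes for condensins and chromosome structure. The table held all 56, and all 56 passed the filter on low counts in every comparison.

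RNA-seq was performed on H1299, a line from a non-small cell lung cancer, in which doxycycline (DOX) switches on an shRNA directed at BRCA2, a protein required for repair of DNA breaks by homologous recombination. BRCA2-proficient cells (labelled WT) received no DOX, and BRCA2-deficient cells (labelled shBRCA2) received 2 µg/mL DOX for 3 days. In each background the cells were transfected with either a control siRNA or an siRNA against β-catenin (siβ-catenin), and then either left without inhibitor or treated with 250 nM LY2090314, an inhibitor of GSK3 (GSK3i), for 24 h. GSK3 phosphorylates β-catenin and so marks it for degradation, and its inhibition makes β-catenin accumulate. The 8 groups were untreated, GSK3i, siβ-catenin and GSK3i plus siβ-catenin cells in each background; untreated here means control siRNA without inhibitor. Of these, 6 groups had 3 libraries, and the BRCA2-proficient untreated and BRCA2-proficient siβ-catenin groups had 2 libraries, numbered 2 and 3. All libraries came from 1 cell line, and every shBRCA2 library and no WT library had received DOX, so BRCA2 loss and DOX itself cannot be told apart.

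Entry into mitosis is driven by cyclin B and CDK1, which CDC25 phosphatases activate. Mitotic kinases, kinesins and microtubule-binding proteins then build the spindle, the checkpoint holds the anaphase-promoting complex in check until each kinetochore is attached, and separase and the cytokinesis machinery divide the chromosomes and the cell. Most of these genes are transcribed late in the cell cycle, in G2 and M, through promoters that often carry CCAAT boxes bound by NF-Y and a cell cycle genes homology region (CHR) bound by complexes with LIN54. In a tumour cell line their transcripts are therefore abundant while the cells cycle and scarce when few cells reach G2.

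The promoters of 5 members are shown because they span the range of these elements, from both motifs to neither. Each sequence holds the last 130 bases before the RefSeq transcription start, 5′ to 3′ on the plus strand of GRCh38.p14. Capitals mark the CHR letters TTTGAA and the CCAAT letters CCAAT, each on either strand.
CCNB2 (chr15:59105016-59105145): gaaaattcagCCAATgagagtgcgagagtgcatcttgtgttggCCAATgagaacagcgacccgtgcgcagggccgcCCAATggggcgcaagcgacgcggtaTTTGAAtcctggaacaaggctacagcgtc
PLK1 (chr16:23678759-23678888): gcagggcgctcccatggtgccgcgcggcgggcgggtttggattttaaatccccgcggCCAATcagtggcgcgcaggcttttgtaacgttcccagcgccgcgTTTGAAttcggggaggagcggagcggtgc
HMMR (chr5:163460502-163460631): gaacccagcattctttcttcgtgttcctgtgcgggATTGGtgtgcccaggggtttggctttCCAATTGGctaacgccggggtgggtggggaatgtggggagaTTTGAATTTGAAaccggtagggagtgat
NCAPH (chr2:96335636-96335765): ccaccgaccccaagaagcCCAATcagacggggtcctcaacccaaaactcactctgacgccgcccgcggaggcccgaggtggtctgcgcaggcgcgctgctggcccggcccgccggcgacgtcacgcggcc
KIF2C (chr1:44739707-44739836): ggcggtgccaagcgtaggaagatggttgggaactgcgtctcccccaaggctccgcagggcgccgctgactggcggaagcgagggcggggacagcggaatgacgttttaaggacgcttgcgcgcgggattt

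CCNB2, which encodes cyclin B2, carried 3 CCAAT boxes and 1 CHR in these bases, and PLK1, which encodes a kinase of mitotic entry, carried 1 of each. HMMR, whose product binds spindle microtubules, carried 2 CHR matches side by side and 3 CCAAT matches. NCAPH, a condensin subunit gene, carried 1 CCAAT box and no CHR, and KIF2C, which encodes a microtubule-depolymerising kinesin, carried neither set of letters. RefSeq windows were found for 49 of the 56 genes, with 64 windows in all because some genes had several starts. In the 250 bases before the start, searched on both strands, TTTGAA lay in 31 of these 64 windows (48.4%), against 13.3% of 35116 windows of all genes. CCAAT lay in 45 (70.3%), against 11240 of the 35116, and both lay in 26 (40.6%), against 4.69%. By gene, 29 of 49 members held TTTGAA, 40 of 49 held CCAAT and 25 of 49 held both. A match of letters does not show that a factor binds there.

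Sequencing depth, as counts assigned to genes, ran from 18938266 to 29280122 per library. BRCA2 itself was lower in each shBRCA2 library (71.4 to 225.3 normalised counts, n = 12) than in each WT library (513.6 to 1111, n = 10), CTNNB1, the β-catenin gene, was lower in each siβ-catenin library (976.8 to 2217, n = 11) than with control siRNA (5206 to 8669, n = 11), and AXIN2, a β-catenin target, was higher under GSK3i with control siRNA (1027 to 1747, n = 6) than elsewhere (59.5 to 227.1, n = 16). Normalised counts are counts divided by the DESeq2 size factor of the library. Markers of the cell line were present, with KRT18 at 5068 to 12950 and VIM at 12640 to 35310, while the alveolar marker SFTPC and the leukocyte marker PTPRC did not exceed 1.57. Mitochondrial genes took 0.688% to 1.634% of the counts. Whether counting used the strand is not given in the sources used here. The spans of some members, introns included, overlap another expressed gene (such as ANLN, CCNA2, NUF2, NUSAP1, SMC4 and NCAPD2). Overlap of exons was not checked, so some of their reads may be mixed with those of the partner.

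Libraries of the BRCA2-proficient siβ-catenin groups went against their labels on genes that GSK3i moved strongly in every other pair of groups. These genes, YPEL2, PDCD4 and ABTB1, are no members and were picked after their values were seen. Outside the BRCA2-proficient siβ-catenin groups, PDCD4 lay between 107.7 and 163.5 in 9 GSK3i libraries and between 1291 and 1920 in 8 libraries without inhibitor. The library labelled BRCA2-proficient GSK3i plus siβ-catenin replicate 2 had 1998 normalised counts of PDCD4, as without inhibitor, whereas its replicates 1 and 3 had 104.7 and 109.2. The library labelled BRCA2-proficient siβ-catenin replicate 2 had 290.9, and replicate 3 had 1056. YPEL2 gave the same order, with 304.1 in the first of these libraries, 35.26 in the second and 125.9 in the third. Counts of called members in comparisons that use these 3 libraries are given below with and without them, and ranges over all libraries include them.

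Replicate number also moved with transcript length. In the 6 libraries numbered 1, the deviation of the members from their group means correlated negatively with log2 exonic length (r from -0.739 to -0.457 over 56 genes), whereas in the 8 libraries numbered 3 it ran from -0.196 to 0.761. Its part in single results was not tested. Size factors set within 20 bins of exonic length moved no count of members by over 1.5 times, and the widest move was from 6 to 9 for siβ-catenin alone in BRCA2-deficient cells.

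The members were most abundant in BRCA2-proficient cells, and their levels moved together across libraries. Per kilobase of exon, the mean level over 22 libraries was highest for TPX2, a spindle assembly factor (3107 normalised counts per kilobase), CDC20, the activator of the anaphase-promoting complex (2648), CCNB1, cyclin B1 (2263), and UBE2C, the ubiquitin-conjugating enzyme that works with the anaphase-promoting complex (2079). It was lowest for KIF14, a kinesin of cytokinesis (126.1), and for CIT, the citron kinase gene (46.96). The median over the members of the log2 level relative to each member's mean lay between 0.31 and 0.746 in the 10 BRCA2-proficient libraries. In the 12 BRCA2-deficient libraries it lay between -1.044 and 0.109, so the backgrounds did not overlap. The same median over all genes lay between 0.002 and 0.023 in every library. The size factors keep it nearly constant, so it checks the scaling only.

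Within BRCA2-deficient cells the median of the members was -0.663, -0.242 and -0.127 in the untreated libraries in ascending order. It was -0.115, 0.039 and 0.109 with GSK3i, above each untreated library. With siβ-catenin it was -1.044, -0.975 and -0.49, and with both agents it was -0.517, -0.39 and -0.223. Of the siβ-catenin libraries, 2 lay below every other library and 1 lay within the range of the untreated group and of the group with both agents. Within BRCA2-proficient cells the 4 groups overlapped one another, with untreated libraries at 0.475 and 0.704 and GSK3i libraries at 0.355, 0.422 and 0.508.

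Over the 22 libraries, the Pearson correlation of each member with the median of the other members was 0.984 for TTK and DLGAP5, 0.991 for TPX2 and 0.992 for CCNA2. It was lowest for CDC25B (0.036), followed by CDC25C (0.66), NCAPD2 (0.713), BIRC5 (0.761) and KIF18A (0.784). These correlations describe 22 libraries that share size factors and batches, and pairs of members had a median r of 0.873. The differences between the groups are part of these values. With group means taken out, pairs of members had a median r of 0.63, from -0.87 to 0.98. CDC25B, a phosphatase that starts CDK1 activation in G2, was thus the member that did not follow the rest. Its level was from 3952 to 6038 (median 5313) in the 10 BRCA2-proficient libraries and from 3905 to 6241 (median 5050) in the 12 BRCA2-deficient libraries, and the backgrounds overlapped.

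The first comparison asked what BRCA2 depletion did to these genes without other treatment. In untreated cells 49 of 56 members were lower in BRCA2-deficient cells and none was higher, against 4.12% of 17157 tested genes lower and 2.78% higher. A gene was called here and below when the DESeq2 Wald test gave a Benjamini-Hochberg adjusted p under 0.05 with an absolute log2 fold change over 0.5. The median log2 fold change of the members was -0.95, against 0.003 for all genes, and all 56 values were negative. From bulk RNA, fewer cells in G2 and M and less RNA of these genes per cell cannot be told apart.

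CENPF (chr1:214776528-214837917, plus strand of hg19), an outer kinetochore protein gene of late G2, was at 7072 and 6707 normalised counts in the BRCA2-proficient untreated libraries. In the BRCA2-deficient untreated libraries it was at 1742, 2901 and 3615 (log2 fold change -1.34 ± 0.28 SE, adjusted p = 0.00018). Both proficient libraries lay well above the 3 deficient ones. Other large changes were in a motor and in condensin. KIF20A (chr5:137514408-137523412, plus strand, overlapped on the opposite strand by BRD8 and CDC23), the kinesin of the central spindle, was at 3681 and 3411 against 1146, 1538 and 1744 (log2 fold change -1.29 ± 0.22 SE, adjusted p = 8.28e-07). SMC2, the shared ATPase of both condensins, was at 5245 and 4721 against 1482, 2130 and 2790 (log2 fold change -1.24 ± 0.26 SE, adjusted p = 0.000192). In each of these genes the deficient library numbered 1 was the lowest.

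All 4 mitotic kinases were lower. PLK1, the Polo-like kinase of mitotic entry whose promoter is shown above, was at 4111 and 3950 against 1579, 2095 and 1901 (log2 fold change -1.14 ± 0.18 SE, adjusted p = 1.63e-07). AURKA, the spindle pole kinase, changed by -0.93 ± 0.19 on the log2 scale, AURKB, the kinase of the passenger complex, by -0.86 ± 0.17, and PLK4, the kinase of centriole duplication, by -0.95 ± 0.25. Their libraries did not overlap between the untreated groups.

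Among cyclins and CDK1 activators, 6 of 7 were lower. CCNA2, cyclin A2, was at 4205 and 3576 against 1432, 2377 and 2273 (log2 fold change -0.96 ± 0.25 SE, adjusted p = 0.00365), and CDK1 was at 3295 and 2918 against 1279, 1874 and 1745 (log2 fold change -0.95 ± 0.21 SE, adjusted p = 0.000525). CCNB1 changed less, from 7413 and 5875 to 3913, 4958 and 4165 (log2 fold change -0.64 ± 0.19 SE, adjusted p = 0.0169). CDC25B, at -0.18 ± 0.18 (adjusted p = 0.62), was the one that did not pass.

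Of the checkpoint, anaphase-promoting complex and separase genes, 8 of 9 were lower, led by ESPL1, which encodes separase (log2 fold change -1.12 ± 0.21 SE, adjusted p = 8.35e-06), and MAD2L1, which encodes the checkpoint protein MAD2 (log2 fold change -0.98 ± 0.20 SE, adjusted p = 7.41e-05). CDC20 went from 7291 and 6906 to 3565, 4077 and 3540 (log2 fold change -0.95 ± 0.15 SE, adjusted p = 1.83e-07). BUB3, a checkpoint adaptor, gave -0.26 ± 0.16 and did not pass (adjusted p = 0.381). All 6 kinetochore and centromere genes and all 8 genes of condensins and chromosome structure were lower, with medians of -1.05 and -1.11. NUF2 and NDC80, partners in the microtubule-binding NDC80 complex, changed by -1.03 ± 0.22 and -1.06 ± 0.20. MKI67, the gene of the proliferation antigen Ki-67, went from 10070 and 9967 to 2603, 3969 and 6199 (log2 fold change -1.25 ± 0.31 SE, adjusted p = 0.00258), with a wide spread among the deficient libraries.

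Of the rest, 2 of 3 passenger complex genes, 6 of 8 kinesins, 5 of 6 spindle assembly factors and 4 of 5 cytokinesis genes were lower. BIRC5, which encodes survivin, gave -0.54 ± 0.20 (adjusted p = 0.0798), and ANLN, which encodes the cleavage furrow protein anillin, gave -0.81 ± 0.28 (adjusted p = 0.0538). KIF14 and ASPM, the latter a spindle pole protein, had large estimates with large errors, at -1.30 ± 0.60 and -1.28 ± 0.59, and neither passed. PRC1, which bundles microtubules of the central spindle, passed with log2 fold change -1.05 ± 0.18 SE, adjusted p = 6.66e-07.

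The BRCA2-proficient untreated group had 2 libraries, so leaving out either left 1. The median of the members was then -0.85 without its replicate 2 and -1.06 without its replicate 3, against -0.95 with both. Fewer members were called in both cases. Without any 1 BRCA2-deficient library the count was 41 to 53, and with edgeR it was 28. All of these calls were lower. Those called under every alternative were PLK1, CDC20, ESPL1, CENPF, KIF20A and PRC1. The fold change correlated negatively with exonic length across the 56 members (r = -0.461).

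The same comparison was made within each treatment, each time between separate libraries. Under GSK3i, 13 members were lower and none was higher, against 3.03% and 3.78% of 16336 genes, with a median of -0.42. Under siβ-catenin, 55 were lower and none was higher, against 13.8% and 13.6% of 17813 genes, with a median of -1.41. Under both agents, 50 were lower and none was higher, against 4.36% and 3.38% of 17046 genes, with a median of -0.81. The median was nearest to 0 under GSK3i and farthest from it under siβ-catenin. The difference between the untreated and GSK3i settings is the same as the interaction tested below, and so is the difference between GSK3i alone and both agents. The other differences between settings were not tested.

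**Figure D1:**
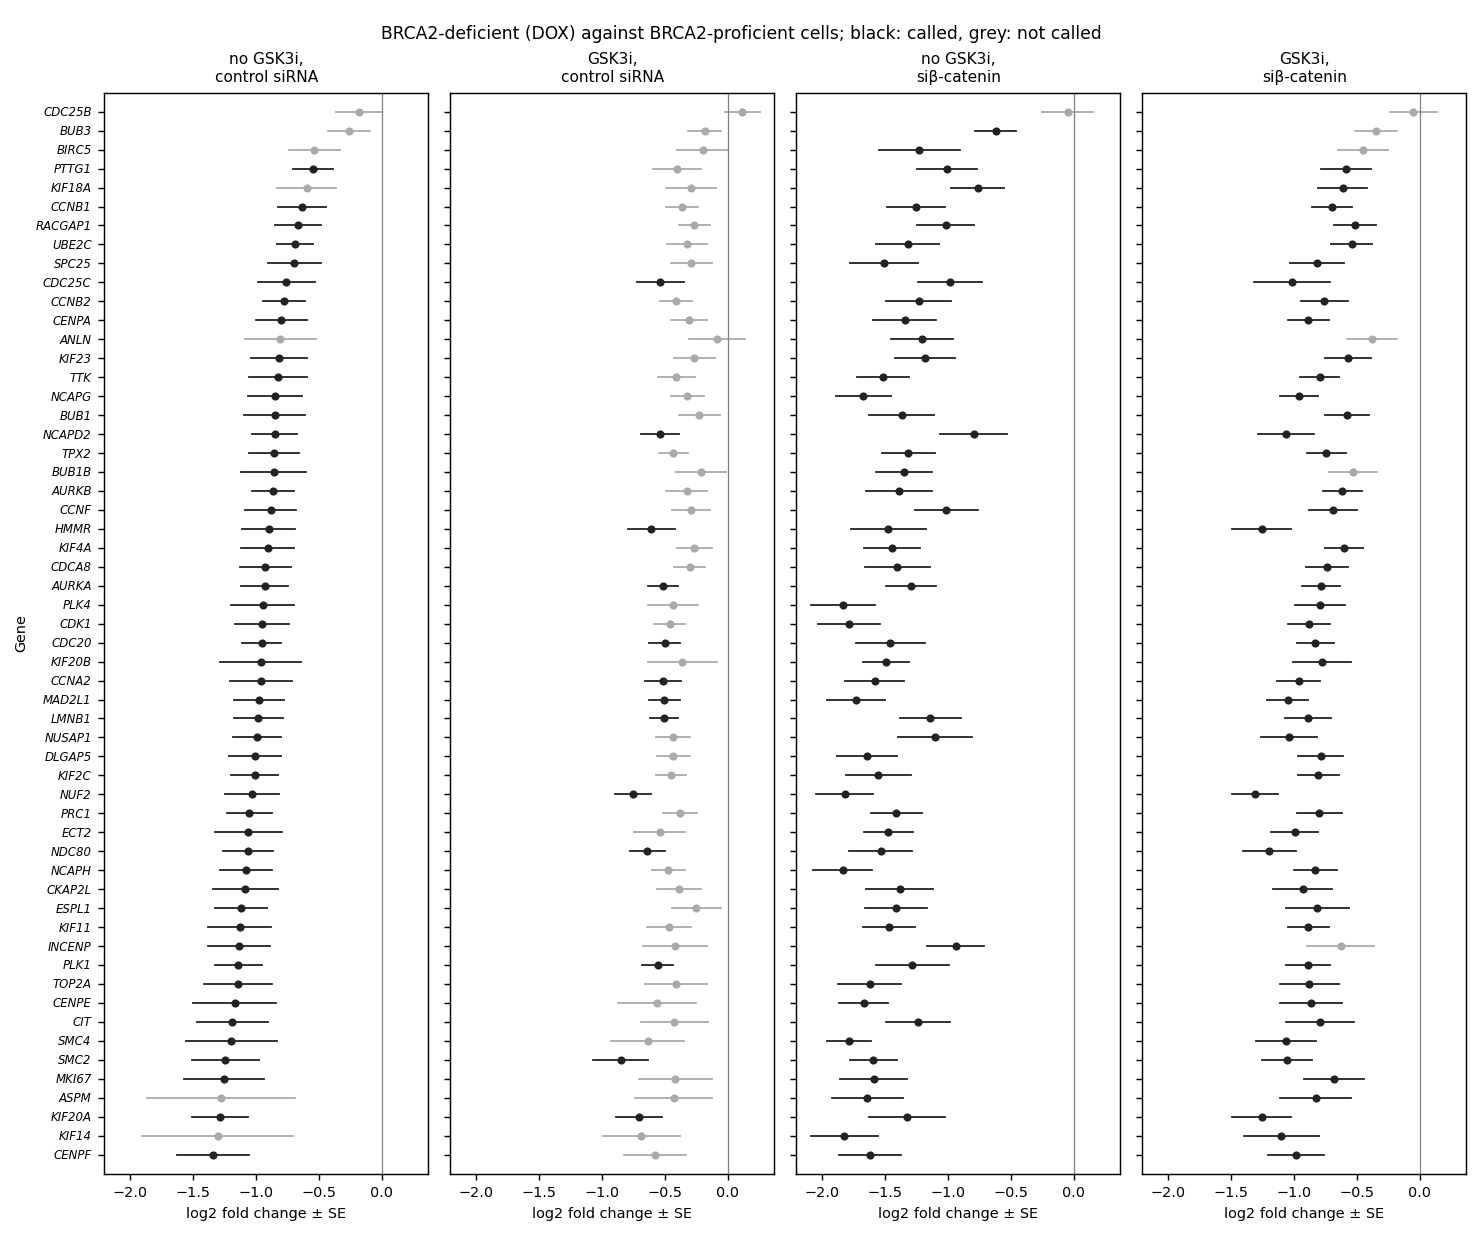
Log2 fold change of BRCA2-deficient over BRCA2-proficient cells for the 56 members in each of the 4 treatments, with 1 point per member. The medians are -0.95 in untreated cells, -0.42 under GSK3i, -1.41 under siβ-catenin and -0.81 under both agents.

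In all 4 comparisons 13 members were lower, namely CCNA2, CDC25C, PLK1, AURKA, MAD2L1, CDC20, NDC80, NUF2, KIF20A, HMMR, NCAPD2, SMC2 and LMNB1. Of all genes tested under GSK3i 3.03% were lower there, so no larger share of them could be lower in all 4. The exact share was not counted. Leaving out the library labelled BRCA2-proficient siβ-catenin replicate 2 removed PLK1, leaving out replicate 3 removed PLK1 and NCAPD2, and leaving out GSK3i plus siβ-catenin replicate 2 removed none. NUF2 had the largest change under both agents, from 1159, 1399 and 1094 in BRCA2-proficient to 521, 443 and 513 in BRCA2-deficient libraries (log2 fold change -1.31 ± 0.18 SE, adjusted p = 2.67e-10). Under GSK3i alone it went from 1235, 1161 and 1325 to 701, 798 and 710 (log2 fold change -0.75 ± 0.14 SE, adjusted p = 8.05e-06). SMC2 gave the largest change under GSK3i, from 4322, 4794 and 5869 to 2037, 3171 and 3112 (log2 fold change -0.85 ± 0.22 SE, adjusted p = 0.00285), and no library of one group reached the other.

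HMMR went from 2262, 3946 and 2391 to 1079, 1217 and 1322 under both agents (log2 fold change -1.25 ± 0.23 SE, adjusted p = 1.01e-05), where the proficient value of 3946 belongs to replicate 2, whose label is in doubt. LMNB1, the lamin B1 gene, changed by -0.51 ± 0.11 under GSK3i and by -0.89 ± 0.18 under both agents. CDC25B was called in none of the 4 comparisons (-0.18 ± 0.18, 0.12 ± 0.14, -0.05 ± 0.20 and -0.05 ± 0.19).

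Under siβ-catenin NCAPH went from 1686 and 1553 in the libraries labelled BRCA2-proficient to 434, 360 and 588 in BRCA2-deficient ones (log2 fold change -1.84 ± 0.24 SE, adjusted p = 8.28e-13), and PLK4 from 1178 and 1418 to 345, 282 and 484 (log2 fold change -1.83 ± 0.25 SE, adjusted p = 5.09e-11). KIF14 gave -1.82 ± 0.26. Without the library labelled BRCA2-proficient siβ-catenin replicate 2 the count was 53 and the median -1.57, and without replicate 3 they were 49 and -1.25. Under both agents INCENP, BUB1B, BIRC5, ANLN, BUB3 and CDC25B did not pass. Without the library labelled GSK3i plus siβ-catenin replicate 2 the count there was 45 and the median -0.74, and with edgeR the count was 32.

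Under GSK3i the call rested on few libraries. The count of 13 fell to 4 without replicate 3 of the BRCA2-proficient GSK3i group, to 8 without its replicate 2 and to 4 with edgeR, and only NDC80 (log2 fold change -0.64 ± 0.14 SE, adjusted p = 0.000258) and NUF2 were called under every alternative. Over all 4 settings, every BRCA2-deficient library lay below every BRCA2-proficient library for 24 of 56 members, against 1.6% of 18409 genes. These were CCNB2, CCNA2, CCNF, CDK1, PLK1, AURKA, BUB1, MAD2L1, TTK, NDC80, NUF2, CDCA8, KIF2C, KIF11, KIF20A, TPX2, DLGAP5, CKAP2L, PRC1, ECT2, RACGAP1, NCAPG, SMC2 and LMNB1. Without the 3 libraries whose labels are in doubt there were 25, with CDC20 added, against 1.91% of all genes. For TPX2 the level ran from 13010 to 16550 (median 14260) in proficient and from 5064 to 11090 (median 8589) in deficient libraries. For PLK1 it ran from 3453 to 4358 (median 3679) in proficient and from 994 to 2574 (median 2029) in deficient libraries.

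The levels of the other members over all treatments followed the same order by background, with overlap in some. Among the cyclins, CCNB2 ran from 2690 to 3457 (median 2952) in proficient and from 943 to 2324 (median 1871) in deficient libraries. CCNF, which encodes cyclin F of a ubiquitin ligase, ran from 1746 to 2329 (median 1981) in proficient and from 761 to 1644 (median 1281) in deficient libraries, and CCNB1 ran from 5875 to 7413 (median 7094) in proficient and from 2234 to 6255 (median 4400) in deficient libraries. Only the last overlapped, between 5875 in a BRCA2-proficient untreated library and 6255 in a BRCA2-deficient GSK3i library.

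In the checkpoint group, BUB1 ran from 3285 to 4456 (median 3522) in proficient and from 1181 to 3240 (median 2209) in deficient libraries, and TTK ran from 3580 to 5008 (median 3892) in proficient and from 1429 to 3403 (median 2200) in deficient libraries. PTTG1, which encodes securin, the inhibitor of separase, ran from 2787 to 3711 (median 3193) in proficient and from 1176 to 3047 (median 2149) in deficient libraries. BUB3 ran from 4563 to 5924 (median 5298) in proficient and from 3440 to 5501 (median 4215) in deficient libraries. The backgrounds were apart for the checkpoint kinases BUB1 and TTK and overlapped for PTTG1 and BUB3.

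The centromere histone gene CENPA, which overlaps SLC35F6 on the same strand, ran from 1075 to 1401 (median 1227) in proficient and from 372 to 1078 (median 700) in deficient libraries. CENPE, a kinetochore kinesin gene, ran from 1823 to 3444 (median 2562) in proficient and from 762 to 2335 (median 1176) in deficient libraries, and SPC25, a partner of NDC80, ran from 546 to 863 (median 640) in proficient and from 225 to 556 (median 419) in deficient libraries. All 3 were called lower in untreated BRCA2-deficient cells (-0.80 ± 0.20, -1.17 ± 0.33 and -0.69 ± 0.21). Of the passenger complex, CDCA8 ran from 3404 to 4446 (median 3863) in proficient and from 1119 to 3375 (median 2263) in deficient libraries, and INCENP, its scaffold gene, ran from 1291 to 2094 (median 1726) in proficient and from 670 to 1450 (median 1093) in deficient libraries.

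Among kinesins, KIF11 ran from 2890 to 4897 (median 3516) in proficient and from 1249 to 2852 (median 1839) in deficient libraries. KIF2C ran from 3700 to 4530 (median 3880) in proficient and from 1091 to 3051 (median 2195) in deficient libraries, and KIF4A ran from 5020 to 5736 (median 5385) in proficient and from 1651 to 5052 (median 3266) in deficient libraries. KIF23, a motor of the central spindle, ran from 3392 to 5189 (median 4032) in proficient and from 1642 to 3786 (median 2526) in deficient libraries. KIF11 and KIF2C were apart between backgrounds, and KIF4A and KIF23 overlapped. KIF20B, a kinesin of late cytokinesis, was called lower after BRCA2 depletion in untreated cells, under siβ-catenin and under both agents (-0.96 ± 0.32, -1.49 ± 0.18 and -0.77 ± 0.23). KIF18A was called under siβ-catenin and under both agents (-0.76 ± 0.21 and -0.61 ± 0.19), and so was KIF14 (-1.82 ± 0.26 and -1.10 ± 0.30).

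DLGAP5, a spindle assembly factor gene, ran from 3147 to 3929 (median 3291) in proficient and from 916 to 2665 (median 1825) in deficient libraries. In cytokinesis, ECT2, the exchange factor gene for RhoA, ran from 4916 to 8211 (median 6139) in proficient and from 2403 to 4676 (median 3099) in deficient libraries, and RACGAP1, which encodes its partner at the central spindle, ran from 4166 to 5337 (median 4699) in proficient and from 2051 to 3910 (median 3237) in deficient libraries. ANLN ran from 7664 to 13900 (median 9168) in proficient and from 3920 to 9166 (median 6177) in deficient libraries. The backgrounds were apart for DLGAP5, ECT2 and RACGAP1 and overlapped for ANLN.

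For chromosome structure, TOP2A, the DNA topoisomerase II alpha gene, ran from 6000 to 11450 (median 8124) in proficient and from 2719 to 6359 (median 4300) in deficient libraries. SMC4, the partner of SMC2 in both condensins, ran from 5665 to 8912 (median 6722) in proficient and from 1532 to 5703 (median 2995) in deficient libraries, and LMNB1 ran from 4499 to 6558 (median 5271) in proficient and from 1928 to 3769 (median 3107) in deficient libraries. The backgrounds were apart for LMNB1, and TOP2A and SMC4 changed by -1.14 ± 0.27 and -1.20 ± 0.36 in untreated cells.

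The next comparison asked what GSK3i did in BRCA2-proficient cells. Of the 56 members 11 were lower and none was higher, against 14.3% of 16771 genes lower and 11.8% higher. The 11 are 19.6% of the members, and in either direction 26.1% of all genes were called. The median of the members was -0.18 and that of all genes -0.002, and 44 of 56 members were negative.

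Of the 6 spindle assembly factors, 4 were among the 11, and the median of the 6 was -0.64. How the calls fell among the roles was not tested. NUSAP1, which binds and bundles spindle microtubules, was at 4208 and 3464 without and 2051, 2072 and 2235 with GSK3i (log2 fold change -0.87 ± 0.14 SE, adjusted p = 5.83e-09). HMMR was at 4419 and 3974 against 2192, 2304 and 3169 (log2 fold change -0.73 ± 0.17 SE, adjusted p = 0.00011), and CKAP2L, a mitotic spindle protein gene, at 1407 and 1180 against 791, 766 and 874 (log2 fold change -0.69 ± 0.15 SE, adjusted p = 4.3e-05). The treated libraries of these genes lay below both untreated ones. ASPM was also lower (-0.58 ± 0.17).

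CDC25C (chr5:137620958-137674044, minus strand of hg19, overlapped on the opposite strand by FAM53C), the phosphatase that activates cyclin B-CDK1 at mitotic entry, had the largest change, from 836 and 660 to 392, 439 and 378 (log2 fold change -0.91 ± 0.17 SE, adjusted p = 2.88e-06). NCAPD2, a condensin I subunit gene, went from 13240 and 12540 to 6771, 7358 and 8323 (log2 fold change -0.80 ± 0.13 SE, adjusted p = 2.65e-08). The others were KIF20A (-0.60 ± 0.14), CENPF (-0.59 ± 0.16), CIT (-0.55 ± 0.17), KIF18A, a kinesin that limits chromosome oscillation (-0.54 ± 0.16), and MKI67 (-0.52 ± 0.19). None of the 4 mitotic kinases, 9 checkpoint and anaphase-promoting complex genes or 3 passenger complex genes was called. The most positive values were UBE2C at 0.43 ± 0.13 (adjusted p = 0.00546), under the fold limit, and BIRC5 at 0.38 ± 0.17 (adjusted p = 0.0719).

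The calls held under every alternative for CDC25C, NUSAP1, HMMR, CKAP2L and NCAPD2. The count was 5 with 1 model over all groups, 6 without replicate 1 of the GSK3i group and 7 without replicate 2 of the untreated group. Of these 7, 6 were lower and BIRC5 was higher (0.61 ± 0.21 SE, adjusted p = 0.0254 with DESeq2). Without replicate 3 of the GSK3i group there were 14, of which 13 were lower and UBE2C was higher (0.53 ± 0.12 SE, adjusted p = 4.45e-05 with DESeq2). The fold change correlated with exonic length (r = -0.371 over 56 genes), and 9 members were called with size factors set within bins of length.

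The same question was then asked in BRCA2-deficient cells. After GSK3i 12 of the 56 members (21.4%) were higher and 1 was lower, against 11.6% of 16863 genes higher and 13.8% lower. The median was 0.34, against 0.025 for all genes, and 47 of 56 members were positive. The 12 comprised 5 checkpoint and anaphase-promoting complex genes, 2 mitotic kinases, 2 passenger complex genes, 2 kinesins and 1 condensin gene. No gene of the kinetochore, spindle assembly or cytokinesis groups was called.

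NCAPH (chr2:97001504-97042829, plus strand of hg19), whose product links the condensin I ATPases, was at 619, 780 and 847 without and 1321, 1518 and 1363 with GSK3i (log2 fold change 0.90 ± 0.18 SE, adjusted p = 6.62e-06). AURKB was at 1638, 1928 and 1588 against 3429, 3145 and 2691 (log2 fold change 0.84 ± 0.17 SE, adjusted p = 7.67e-06), and UBE2C at 1872, 1894 and 1903 against 3966, 3062 and 2833 (log2 fold change 0.80 ± 0.18 SE, adjusted p = 6.9e-05). For all 3 genes each treated library was above each untreated one.

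BIRC5, whose product sits with AURKB in the passenger complex, went from 1008, 1161 and 930 to 2226, 1478 and 1378 (log2 fold change 0.71 ± 0.22 SE, adjusted p = 0.00782), and CDCA8, which encodes borealin of the same complex, changed by 0.65 ± 0.17. PLK4 changed by 0.74 ± 0.25, BUB1B, the BUBR1 checkpoint kinase gene, by 0.76 ± 0.25, KIF4A, a chromosome-bound kinesin, by 0.66 ± 0.19, CDC20 by 0.57 ± 0.15, KIF2C by 0.54 ± 0.16 and MAD2L1 by 0.53 ± 0.16. BUB1, a checkpoint kinase gene, passed narrowly (log2 fold change 0.54 ± 0.22 SE, adjusted p = 0.0496) and not with edgeR or with TMM size factors. The span of BUB1B overlaps that of PAK6 on the same strand. Overlap of their exons was not checked, so its counts may be uncertain.

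CDC25C fell here as well, from 426, 547 and 378 to 312, 302 and 224 (log2 fold change -0.69 ± 0.23 SE, adjusted p = 0.0111), but the untreated library at 377.6 was close to the treated ones. Its adjusted p was 0.142 without the untreated replicate 2 and 0.0983 without the GSK3i replicate 3. AURKB, UBE2C, CDCA8, KIF4A and NCAPH were called under every alternative, and the count was 8 without replicate 2 of the GSK3i group.

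**Figure D2:**
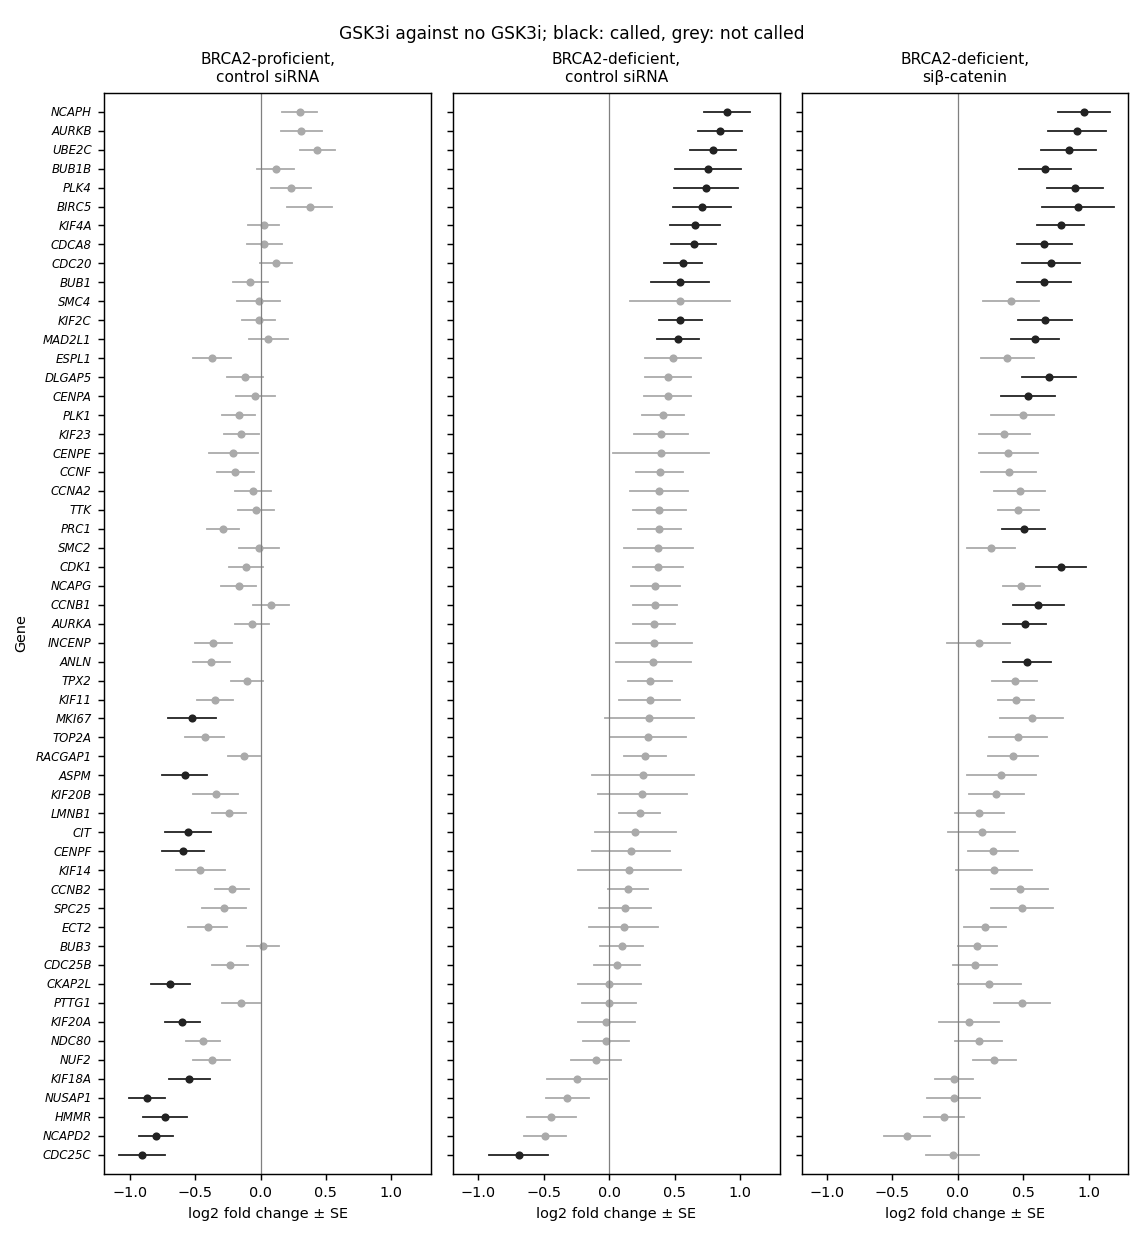
Log2 fold change after GSK3i for the 56 members in BRCA2-proficient cells and in BRCA2-deficient cells, with 1 point per member. The medians are -0.18 and 0.34, and CDC25C lies low in both.

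Across the 56 members, the GSK3i changes in the 2 backgrounds, which share no library, had a Pearson correlation of 0.852, although 21 of 56 members had the same sign. The members at the top of one ranking, such as UBE2C, NCAPH, AURKB and BIRC5, were at the top of the other. Those at the bottom, such as CDC25C, NCAPD2, HMMR and NUSAP1, were likewise low in both, with NUSAP1 at -0.87 ± 0.14 and -0.32 ± 0.16. The genes are not independent replicates.

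The difference in GSK3i response between the backgrounds was tested directly as an interaction. The estimate was positive for all 56 members, with a median of 0.51. None was called in the main DESeq2 fit, against 0.0345% of 17381 genes called in either direction. At an unadjusted p under 0.05 there were 26 members, against 558 of the 17381 genes, and edgeR called 0. With the replicate number as a block, DESeq2 called ESPL1, PRC1, PLK1, AURKB, CDCA8 and KIF4A, with estimates from 0.52 to 0.71. Of these, ESPL1 gave 0.71 ± 0.14 SE (adjusted p = 0.000274) and KIF4A 0.54 ± 0.14 SE (adjusted p = 0.0281). The interaction correlated with exonic length (r = 0.547 over 56 genes).

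The role of β-catenin in the GSK3i response was addressed with siβ-catenin. In BRCA2-deficient cells under GSK3i, siβ-catenin left 9 members lower and none higher, against 2.54% and 2.97% of 17025 genes, with a median of -0.38 and 55 of 56 members negative. The 9 were MAD2L1, NCAPG, NCAPH, UBE2C, NUF2, KIF11, TTK, CDC20 and CCNA2. MAD2L1 (chr4:120976778-120988013, minus strand of hg19) was at 1024, 987 and 945 with GSK3i alone and 647, 548 and 539 with siβ-catenin added (log2 fold change -0.77 ± 0.15 SE, adjusted p = 1.31e-05). NCAPG, a condensin I subunit gene, was at 4049, 4693 and 4206 against 2650, 2819 and 2785 (log2 fold change -0.65 ± 0.13 SE, adjusted p = 3.83e-05), and NCAPH was at 1321, 1518 and 1363 against 808, 965 and 918 (log2 fold change -0.65 ± 0.15 SE, adjusted p = 0.000792). The 3 genes showed no overlap between the groups.

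UBE2C changed by -0.63 ± 0.18, KIF11, the kinesin that pushes spindle poles apart, by -0.57 ± 0.18, and TTK, the MPS1 checkpoint kinase gene, by -0.55 ± 0.14. CDC25C, lower under GSK3i in both backgrounds, was at 295, 261 and 322 with both agents (0.07 ± 0.20, adjusted p = 0.938). MAD2L1 and NCAPG were called under every alternative. The count was 2 with edgeR, 2, 17 and 5 without GSK3i replicates 2, 1 and 3, and 3 without replicate 2 of the group with both agents. It was 13 with the replicate number as a block.

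In BRCA2-proficient cells under GSK3i, siβ-catenin left no member called with DESeq2, against 1.86% of 16393 genes lower and 3.09% higher, with a median of 0.03. At an unadjusted p under 0.05 there were 3 members, against 2875 of the 16393 genes, and edgeR called 0. With the replicate number as a block NUSAP1 was called higher (0.52 ± 0.16 SE, adjusted p = 0.0278). Without the library labelled replicate 2 of the group with both agents the count stayed at 0, and the median was -0.07. The difference in this response between the backgrounds was negative for all 56 members, with a median of -0.38. DESeq2 called no member there, against 0.0057% of 17544 genes, and edgeR called 0. At an unadjusted p under 0.05 there were 20 members, against 326 of the 17544 genes. Without that library the median was -0.32 and no member was called. With the replicate block NCAPG alone was called (-0.64 ± 0.14 SE, adjusted p = 0.0153).

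Without GSK3i, siβ-catenin in BRCA2-deficient cells left 6 members lower and none higher, against 0.837% and 1.17% of 17324 genes, with a median of -0.48 and all 56 members negative. They were NUF2, CDK1, MAD2L1, HMMR, NCAPG and KIF11. NUF2 went from 626, 850 and 891 to 423, 376 and 426 (log2 fold change -0.95 ± 0.19 SE, adjusted p = 0.000183). CDK1 went from 1279, 1874 and 1745 to 824, 737 and 1124 (log2 fold change -0.86 ± 0.21 SE, adjusted p = 0.00655), and MAD2L1 from 616, 661 and 768 to 382, 327 and 448 (log2 fold change -0.82 ± 0.19 SE, adjusted p = 0.00222). For these genes each siβ-catenin library lay below each untreated one.

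With the replicate number as a block 20 members were lower, and with edgeR 0 were called. The count was 1, 3 and 23 without siβ-catenin replicates 1, 2 and 3, and 26 and 2 without untreated replicates 1 and 2. No member was called under every alternative.

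In BRCA2-proficient cells without GSK3i, siβ-catenin left no member called with DESeq2, against 1.87% of 17654 genes lower and 0.952% higher, and edgeR called 0. No member had an unadjusted p under 0.05, against 2336 of the 17654 genes. The median was -0.04. This comparison rested on the 2 libraries whose labels are in doubt, and the libraries differed, with HMMR at 2207 and 4905 and NCAPD2 at 7067 and 12890. The count was 1, lower, without the library labelled siβ-catenin replicate 2, and 9 lower without replicate 3, with medians of 0.10 and -0.24.

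GSK3i was also compared after siβ-catenin. In BRCA2-deficient cells 19 members were higher and none was lower, against 8.56% and 11.5% of 17610 genes, with a median of 0.45 and 51 of 56 members positive. They included 5 of the 9 checkpoint and anaphase-promoting complex genes, 3 of the 4 mitotic kinases and 2 of the 3 passenger complex genes. All 12 members that GSK3i raised with control siRNA were among these 19 (63.2% of the 19), in libraries that were not shared. The overlap of these calls over all genes was not counted. The changes of the 56 members in the 2 comparisons had an r of 0.879.

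NCAPH again led, from 434, 360 and 588 to 808, 965 and 918 (log2 fold change 0.97 ± 0.20 SE, adjusted p = 2.29e-05). BIRC5 went from 676, 440 and 1090 to 1610, 1075 and 1459 (log2 fold change 0.92 ± 0.27 SE, adjusted p = 0.00616), and AURKB from 1177, 885 and 1701 to 2579, 2145 and 2320 (log2 fold change 0.91 ± 0.22 SE, adjusted p = 0.000443). For NCAPH and AURKB each library with both agents was above each siβ-catenin library, whereas for BIRC5 the lowest of the former, 1075, lay below the highest of the latter, 1090. PLK4 changed by 0.90 ± 0.22, CDK1 by 0.79 ± 0.19 and KIF4A by 0.79 ± 0.18.

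CDC25C gave -0.04 ± 0.21 (adjusted p = 0.916) after siβ-catenin. The calls held under every alternative for CDK1, PLK4, AURKB, UBE2C, KIF4A and NCAPH. The count was 7 without siβ-catenin replicate 1 and 7 without replicate 2 (6 higher and 1 lower), 33 without replicate 3, and 12 (11 higher and 1 lower) without replicate 3 of the group with both agents. The difference in GSK3i response between siβ-catenin and control siRNA was positive for 45 of 56 members, with a median of 0.11. DESeq2 called no member, against 0.447% of 18117 genes, and edgeR called 0. At an unadjusted p under 0.05 there was 1 member, against 994 of the 18117 genes.

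In BRCA2-proficient cells GSK3i after siβ-catenin left no member called with DESeq2, against 0.047% of 17010 genes higher and 0.00588% lower, and edgeR called 0. At an unadjusted p under 0.05 there was 1 member, against 263 of the 17010 genes, and the median was -0.12. The count of called members stayed at 0 without any 1 library, and the median was -0.30 without siβ-catenin replicate 2 and 0.07 without replicate 3. Without both libraries numbered 2, an alternative chosen after the values were seen, 20 members were lower, with HMMR at -1.07, ASPM at -0.95 and CENPF at -0.84 on the log2 scale. This leaves 1 siβ-catenin library, which is assumed to vary like the others. For HMMR the libraries labelled siβ-catenin were at 2207 and 4905 and those labelled GSK3i plus siβ-catenin at 2262, 3946 and 2391, so that the values of the libraries numbered 2 lay the other way round from the rest.

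**Figure D3:**
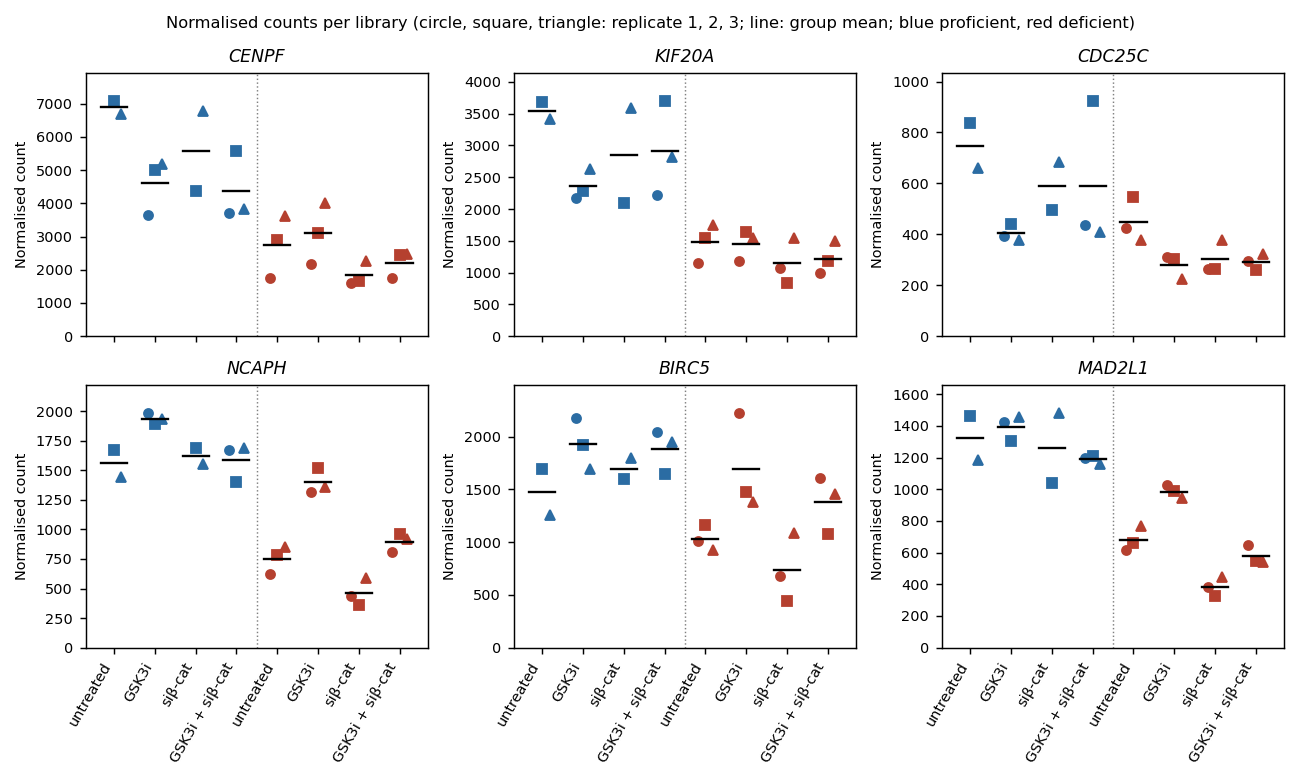
Normalised counts of CENPF, KIF20A, CDC25C, NCAPH, BIRC5 and MAD2L1 in each of the 22 libraries by group. BRCA2-proficient libraries lie above BRCA2-deficient ones without overlap for KIF20A and MAD2L1, and CDC25C is lower with GSK3i than untreated in both backgrounds.

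Members with and without TTTGAA were also set side by side, as a description. In untreated cells the median change after BRCA2 depletion was -0.95 for the 29 members with TTTGAA and -0.99 for the 20 without. After GSK3i in BRCA2-deficient cells the medians were 0.34 and 0.30, and in BRCA2-proficient cells -0.29 and -0.18. NCAPH and KIF2C, whose promoters shown above hold no TTTGAA, changed by -1.08 ± 0.21 and -1.01 ± 0.19 after BRCA2 depletion, and PLK1 and CCNB2, which hold it, by -1.14 ± 0.18 and -0.78 ± 0.17.

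Other genes of the cell cycle were counted beside the members. Of 50 other mitotic genes, GSK3i in BRCA2-proficient cells left 4 higher and 3 lower, against 11.8% and 14.3% of all tested genes. In BRCA2-deficient cells it left 19 higher and none lower, against 11.6% and 13.8%. CDCA5, which encodes the cohesin protector sororin, rose in both, by 0.71 ± 0.14 and 1.25 ± 0.16 on the log2 scale. BRCA2 depletion left 39 of the 50 lower in untreated cells, 7 under GSK3i, 48 under siβ-catenin and 32 under both agents, and none was higher. Of all tested genes 4.12%, 3.03%, 13.8% and 4.36% were lower in these settings, and 2.78%, 3.78%, 13.6% and 3.38% were higher. DEPDC1 changed by -1.30 ± 0.28 in untreated cells. In this list TROAP and WDR62, a spindle pole protein gene, were among the 3 that differed in GSK3i response between the backgrounds (0.78 ± 0.13 and 0.77 ± 0.16 SE, adjusted p = 2.99e-05 and 0.00557). Over all genes 6 of 17381 were called in this interaction. The list was drawn up with earlier results of these data known, so its share of these calls is no independent result.

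Of 38 S-phase genes, which act before mitosis in DNA replication, 9 were higher after GSK3i in BRCA2-proficient cells and 24 in BRCA2-deficient cells, and none was lower. Of all tested genes 11.8% and 11.6% were higher, and 14.3% and 13.8% were lower. FEN1, the flap endonuclease of Okazaki fragment processing, rose by 0.84 ± 0.16 and 1.25 ± 0.18. In BRCA2-deficient cells 7 of the 38 were lower with siβ-catenin under GSK3i and 8 without GSK3i, against 2.54% and 0.837% of all tested genes. BRCA2 depletion left 22 lower and 1 higher in untreated cells, the latter being CCNE1, cyclin E1 (0.65 ± 0.21 SE, adjusted p = 0.0305). Under GSK3i 1 was lower and 1 higher, under siβ-catenin 37 were lower and none higher, and under both agents 13 were lower and 1 higher. CCNE1 was the one called higher in both cases (0.67 ± 0.19 and 0.60 ± 0.19). For each setting of BRCA2 depletion the shares of all tested genes were those given above beside the other mitotic genes.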

How the data were processed

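RNA-seq libraries (TruSeq stranded mRNA, poly(A) selected) were prepared from H1299 cells. The deposited values are raw counts per gene that the authors made. The submitters' processing notes name HISAT2 2.0.4, SAMtools 1.4, Picard 1.9.2 and featureCounts 1.5.0, with the build hg19. The annotation release and strand setting are not given in the sources used here. Of 37908 identifiers, 36479 were matched to a symbol, and positions and exonic lengths were taken from GENCODE on GRCh37.

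Each comparison was fitted on its own groups with DESeq2 1.42.0 in R 4.3.3 (Wald test, Benjamini-Hochberg adjustment over all tested genes). A gene was left out when more than 3 libraries of the fit had under 10 counts. For interactions, at least 3 libraries had to reach 10 counts. Calls needed an adjusted p under 0.05 and an absolute log2 fold change over 0.5. The scripts were tested on simulated data. The alternatives were TMM size factors, no filter, edgeR 4.0.16, 1 model over all groups, the replicate number as a block and leaving out each library. Size factors within 20 length bins and leaving out both BRCA2-proficient libraries numbered 2, or the 3 libraries whose labels are in doubt, were chosen after seeing the data.

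Replicate numbers come from the sample titles. Same-numbered libraries deviated together (every r over 0.1 in 3 pairs) in 7 comparisons, with r from 0.141 to 0.867. There the numbers were taken to pair the libraries, but the main fits did not use this pairing. The replicate block, which does, was run as an alternative, and the counts that it moved are given below. The paper describes the replicates as independent experiments. No 2 replicates were within sampling noise (chi-square per gene 10.78 to 64.38 in 20 pairs). Depth was 18938266 to 29280122 counts per library, and the lowest value of any member in any library was 224 normalised counts.

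All 56 members are described by role. Levels or fold changes are given for called members with large changes and for chosen anchors of each role. Library values, standard error and adjusted p are given together for some of these only. The members and lists were chosen with earlier results of these data known.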

Additional observations from a re-analysis of the deposited data

How the results depend on the processing

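Counts of members called changed by more than 1.5 times, or from or to 0, in 38 recomputed results, and 155 did not move that far. The 155 include the difference between library medians with TMM given below, which was judged by the spread within groups. One model over all groups gave 5 for GSK3i in BRCA2-proficient cells, 5 for BRCA2 depletion under GSK3i and 16 for siβ-catenin without GSK3i in BRCA2-deficient cells. With edgeR the counts were 2 for siβ-catenin under GSK3i in BRCA2-deficient cells, 0 for siβ-catenin without GSK3i in those cells, and 28, 4 and 32 for BRCA2 depletion in untreated cells, under GSK3i and under both agents. The replicate block gave 6 for GSK3i in BRCA2-proficient cells, 1 for siβ-catenin under GSK3i in those cells, 20 for siβ-catenin without GSK3i in BRCA2-deficient cells, 1 for the difference in siβ-catenin response and 6 for the difference in GSK3i response between backgrounds (ESPL1, PRC1, PLK1, AURKB, CDCA8 and KIF4A, from 0.52 to 0.71). In the other comparisons the block moved no count by over 1.5 times. In BRCA2-deficient cells it gave 14 for GSK3i and 13 for siβ-catenin under GSK3i. The numbers were not shown to pair the libraries in comparisons with a group of 2, where r ran from -0.422 to 0.258. Leaving out 1 library gave 6 to 14 members for GSK3i in the proficient and 8 to 17 in the deficient background, 0 to 1 and 2 to 17 for siβ-catenin under GSK3i, 0 to 9 and 1 to 26 for siβ-catenin alone, and 7 to 33 for GSK3i after siβ-catenin in BRCA2-deficient cells. For BRCA2 depletion it gave 6 to 53 in untreated cells, 4 to 13 under GSK3i, 49 to 55 under siβ-catenin and 36 to 48 under both agents, and 0 to 1 for the difference in GSK3i response. Without both BRCA2-proficient libraries numbered 2, GSK3i after siβ-catenin left 20 members lower, and CDC25C (-0.69, adjusted p = 0.039 with DESeq2) and KIF20A (-0.50, adjusted p = 0.0333) turned from 0.01 and 0.04. TMM size factors and no filter moved no count past 1.5 times. The cause of these changes was not tested. The difference between the means of library medians of deficient and proficient libraries was -0.87 and, with TMM, -0.89. Depth was not varied.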
